A study of Ovis aries with 2 samples.

Results

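The FCER2-negative conventional B cells of sheep blood were defined as barcodes that carried B-lineage RNA and lacked the markers of the other B-cell states in the same samples. A barcode was taken when it held at least 4 unique molecular identifiers (UMIs, each standing for 1 captured transcript) of the B-lineage genes MS4A1, CD79B, PAX5 and BANK1 together, and none of CD3D, CD3E or FCER2. It could hold at most 1 UMI of MZB1 and DERL3 together, at most 1 of SOX5, at most 1 of NPAS3 and at most 2 of the division genes MKI67, TOP2A and CENPF together. Of 17540 kept barcodes, 618 met these conditions, 345 of 9452 in the A.G.-ES library and 273 of 8088 in the untreated library. The blood mononuclear cells came from weaned lambs that had either A.G.-ES, a suture eluting astragaloside IV and glycyrrhizic acid, embedded at the acupoint ST36 on both sides, or no treatment. The cells were used without culture and read with a droplet method that captures the 3′ ends of transcripts. There was 1 library per group, and the sources used here give neither the number of animals behind a library nor their sex or the time after embedding. All differences therefore compare 2 libraries, no test between the groups was possible, and every interval below is a 95% interval of counting error only.

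B cells make antibodies. MS4A1 encodes the surface protein CD20, CD79A and CD79B encode the signalling chains of the B-cell receptor, PAX5 and EBF1 are the transcription factors that hold the B lineage, and BANK1 is a B-cell scaffold protein. FCER2 encodes CD23, the low-affinity receptor for IgE, which in mice and humans marks mature resting B cells. Resting B cells circulate between blood and lymphoid organs with the chemokine receptors CCR7 and CXCR5, and the transcription factor BACH2 holds back their conversion to antibody-secreting cells. SOX5, ZEB2 and TBX21 are, in humans, expressed in an atypical memory B-cell state.

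The libraries differed in more than their labels. Median UMIs per kept barcode outside the gate were 4212 in the A.G.-ES library and 5320 in the untreated library. Genes that a RefSeq annotation of the sheep assembly ARS-UI_Ramb_v3.0 places on the Y chromosome (85 genes) gave 43 UMIs, in 10.1% of the conventional B cells, in the A.G.-ES library, against 1075 UMIs, in 80.6%, in the untreated library. Among all other kept barcodes the shares with such a UMI were 7.13% and 90.3%. Treatment and the animals behind each library cannot be told apart. The libraries shared 61 barcodes, of which 0 were conventional B cells in the A.G.-ES library and 1 was in the untreated library. The sorted-out classes used for comparison were SOX5-positive B cells (the same gate with at least 2 SOX5 UMIs; 536 and 1907 barcodes in the A.G.-ES and untreated libraries) and FCER2-positive B cells (the same gate with at least 1 FCER2 UMI; 79 and 19 barcodes).

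Conventional B cells made up a nearly equal share of both libraries while B cells as a whole did not. They were 3.65% of kept A.G.-ES barcodes (interval 3.28 to 4.05%) and 3.38% of kept untreated barcodes (2.99 to 3.79%), and the intervals overlapped. Among barcodes with B-lineage RNA and no CD3 UMI, they were 23.7% of 1455 A.G.-ES barcodes (21.5 to 26.0%) and 8.32% of 3282 untreated barcodes. SOX5-positive B cells were 5.67% of kept A.G.-ES barcodes and 23.6% of kept untreated barcodes, so the larger share of conventional cells among A.G.-ES B cells went with fewer SOX5-positive ones. The SOX5 condition removed more barcodes than any later step. It kept 484 of 1182 A.G.-ES barcodes (40.9%) and 311 of 2339 untreated barcodes (13.3%). The FCER2 condition, applied last, kept 345 of 424 A.G.-ES barcodes and 273 of 292 untreated barcodes.

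**Figure D1:**
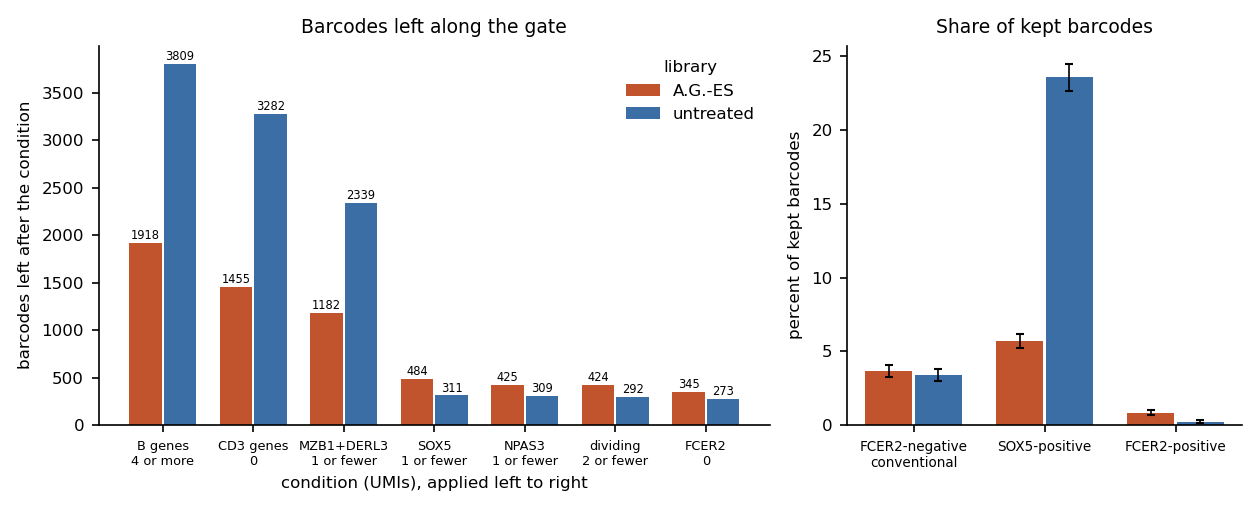
Barcodes left after each condition of the gate, applied from left to right, in the A.G.-ES and untreated libraries (left), and the share of kept barcodes in each class with its exact binomial interval (right). The SOX5 condition leaves 484 A.G.-ES and 311 untreated barcodes, and the final shares are 3.65% and 3.38%.

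A limit of 1 SOX5 UMI admits more cells among shallow barcodes. Of the barcodes that passed the conditions other than those on SOX5 and FCER2, 64.4% of A.G.-ES and 43.9% of untreated ones under 2000 UMIs had at most 1 SOX5 UMI, against 10.5% and 5.80% of those with 8000 UMIs or more. Conventional B cells were shallower than SOX5-positive B cells, with medians of 3898 and 5972 UMIs in the A.G.-ES library and 4804 and 8034 UMIs in the untreated library. In another setting, barcodes were thinned to 3000 UMIs before the gate, and those with fewer were left out. Then 427 of 6974 A.G.-ES (6.12%) and 522 of 6609 untreated barcodes (7.90%) passed the whole gate. The order of the libraries was thus turned, but over the deeper barcodes alone and not over all kept ones. With the limit lowered to 0 SOX5 UMIs, the shares of all kept barcodes were 2.59% and 2.14%. Barcodes next to the SOX5 limit were close to each other. BACH2 stood at 922 CPM (UMIs per 1000000 UMIs of the summed counts) in the 100 A.G.-ES barcodes with 1 SOX5 UMI, just inside, and at 648 CPM in the 80 with 2, just outside, and at 1256 CPM in the 100 untreated barcodes with 1 and 1038 CPM in the 81 with 2.

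The label of a B cell held for most of the barcodes. EBF1, which the gate did not use, stood at 744 CPM in A.G.-ES conventional B cells and 1396 CPM in untreated ones, against 6.29 and 17.6 CPM in barcodes with CD3 UMIs outside the B gate. At least 1 EBF1 UMI was found in 82.3% of A.G.-ES and 82.1% of untreated conventional B cells, at medians of 3898 and 4804 UMIs, and in 2.17% and 6.62% of those CD3 barcodes, at medians of 4082 and 4074 UMIs. At least 3 UMIs of the 12 B markers outside the gate were present in 97.1% of A.G.-ES and 90.5% of untreated members, against 19.8% and 53.6% of the CD3 barcodes outside the B gate. CD79A stood at 759 CPM in the A.G.-ES library (714 to 805) and 603 CPM in the untreated library (564 to 645). The weakest evidence lay at the lower edge of the gate in the untreated library. Of 33 untreated barcodes with exactly 4 B-gene UMIs, 51.5% had 3 UMIs of the other B markers, and 30.3% had an EBF1 UMI. Their median depth was 1231 UMIs, so the 51.5% and the 53.6% of the deeper untreated CD3 barcodes are at unlike depths. As CPM, the other B markers stood at 1724 in these 33 and 723 in those CD3 barcodes, and EBF1 at 328 and 17.6. The 33 barcodes also held monocyte markers at 2818 CPM and NK and cytotoxic markers at 1423 CPM. Of the 44 such A.G.-ES barcodes, 93.2% had 3 UMIs of the other B markers. At the upper end, 25 of 345 A.G.-ES and 103 of 273 untreated members held 20 or more B-gene UMIs.

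RNA of other blood cells was present as well, most of the monocyte RNA in a few barcodes. Of 8 measured monocyte markers, 6 were detected in A.G.-ES and 7 in untreated members, at 202 and 276 CPM summed over the list. CD14 and CD68 were at 0 in the A.G.-ES library and CD68 at 0 in the untreated one. At least 3 monocyte UMIs were held by 6 A.G.-ES and 10 untreated barcodes, and these carried 92.4% and 95.5% of all monocyte-list UMIs. All 7 measured NK and cytotoxic markers were detected in both libraries, at 95.6 and 364 CPM over the list, and 3 A.G.-ES and 8 untreated barcodes held at least 3 of these UMIs, 41.9% and 97.1% of the list's total. In the A.G.-ES library the NK list was thus spread more widely, with at least 1 UMI in 73 members (21.2%), against 21 untreated members (7.69%). GNLY, the cytotoxic granule protein granulysin, gave 33 of its 75 A.G.-ES UMIs in 1 barcode and 230 of its 367 untreated UMIs in 1 barcode. Some results below are also given without the 9 A.G.-ES and 18 untreated barcodes that held at least 3 UMIs of either list, and are then said to have those barcodes set aside. T-cell markers other than the CD3 genes gave 72 and 59 UMIs. Erythroid markers gave 0 and 2 UMIs, and TNFRSF17, a receptor of antibody-secreting cells, was at 0 in both libraries.

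Set against SOX5-positive B cells, the conventional B cells carried more RNA of BACH2, BTLA and SLC38A4 and less of ABTB2, SDK1 and ITGAM in both libraries. With the mixed barcodes set aside, 217 of 6634 genes (3.27%) were at least 1.5-fold higher in conventional B cells in both libraries, and 210 (3.17%) at least 1.5-fold lower. The classes were divided by SOX5 counts in these same cells, so all of these values are descriptions. With all members, the counts were 294 higher (4.38%) and 184 lower (2.74%) of 6715 genes. The list of highest genes was then led by monocyte products, among them VCAN, CXCL8 and S100A8. VCAN, a matrix proteoglycan made by monocytes, had log2 ratios of 4.16 in the A.G.-ES library and 3.53 in the untreated library with all members. With the mixed barcodes set aside, 2 UMIs were left in each library, and the ratios were 0.339 (0.0374 to 1.48) and 1.37 (0.153 to 5.76). The genes named next were ranked with those barcodes set aside.

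BACH2 stood at 1436 CPM in conventional and 396 CPM in SOX5-positive A.G.-ES B cells, a ratio of 3.63 (3.38 to 3.89). Its untreated levels were 2455 CPM in conventional and 517 CPM in SOX5-positive B cells, a ratio of 4.74 (4.55 to 4.94). BTLA, an inhibitory receptor of lymphocytes, was 6.43-fold higher in the A.G.-ES library (4.59 to 9.15) and 4.46-fold higher in the untreated library (3.22 to 6.11). The stress-induced TP53INP1 was 4.27-fold and 5.91-fold higher, and ITGB7, an integrin chain of gut homing, 5.18-fold and 3.67-fold higher, in the A.G.-ES and untreated libraries. The amino acid transporter SLC38A4 was 7.18-fold and 11.4-fold higher. Others of the 15 highest genes were NREP, DHRS3, RNF150, MMP11, SGK1, DUSP4, ABTB3, GPM6B and OGFRL1, with log2 ratios of at least 1.89 in each library.

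Of the genes lower than in SOX5-positive B cells, ITGAM, the CD11b integrin chain, stood at 4.38 CPM in conventional and 21.2 CPM in SOX5-positive A.G.-ES B cells, from 6 UMIs in the conventional cells. Its untreated values were 2.98 and 15.6 CPM, from 4 UMIs in the conventional cells. ABTB2 had ratios of 0.115 (0.0687 to 0.183) in the A.G.-ES library and 0.256 (0.196 to 0.329) in the untreated library. SDK1, a cell adhesion molecule, stood at 0.318 (0.259 to 0.386) and 0.305 (0.246 to 0.374), and CHST15, a chondroitin sulfate sulfotransferase, at 0.211 and 0.387. AOAH, which deacylates bacterial lipopolysaccharide, stood at 0.206 and 0.337. The other 10 of the 15 lowest genes were DPYSL3, ARHGEF10L, SLC24A3, FSTL4, KCNK10, ITM2C, TNS3, RAB31, CTNND2 and SLC9B2.

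**Figure D2:**
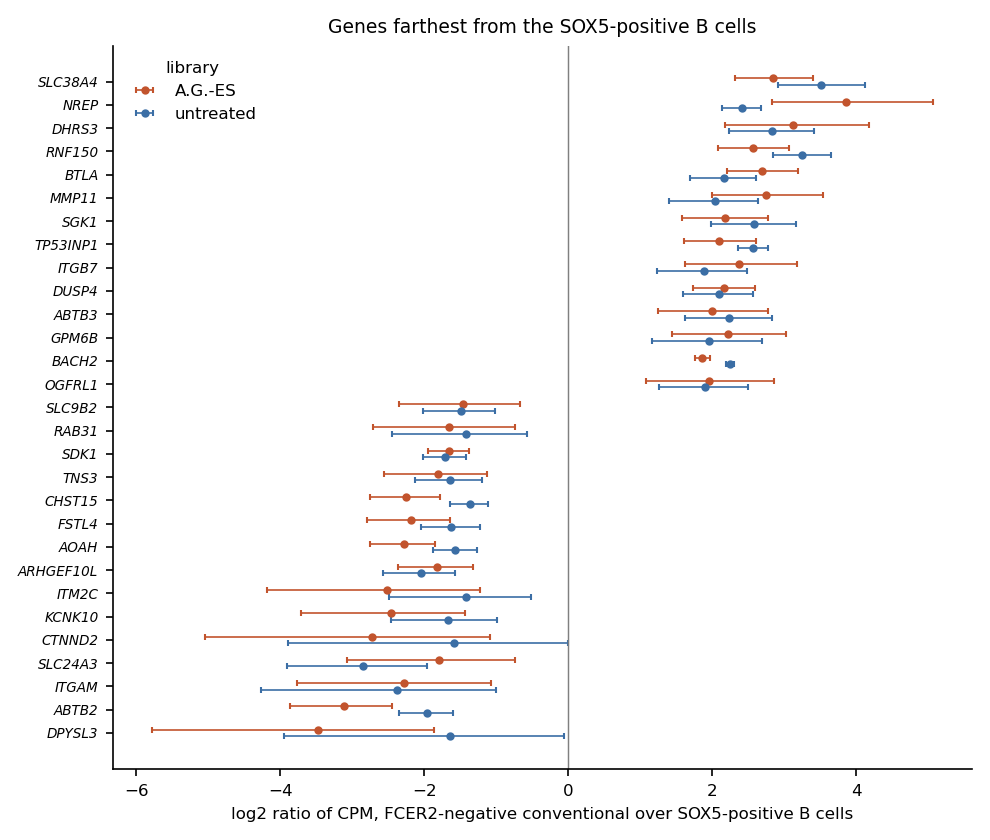
Log2 ratios of CPM of conventional over SOX5-positive B cells for 14 of the 15 highest and the 15 lowest genes, with barcodes holding at least 3 monocyte or NK UMIs set aside, in the A.G.-ES and untreated libraries. Points are ratios of summed counts and bars their exact conditional binomial intervals. SLC38A4 and NREP lie farthest to the right, and ABTB2 and DPYSL3 farthest to the left.

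Over all depths, levels differed in steps along the SOX5 count, not at the limit alone. BACH2 stood at 1662, 913, 535, 379 and 341 CPM in A.G.-ES barcodes with 0, 1, 2 to 3, 4 to 9 and 10 or more SOX5 UMIs. In untreated barcodes it stood at 3155, 1285, 1071, 552 and 468 CPM in the same order. BTLA stood at 109, 63.1, 28.4, 15.9 and 7.06 CPM in A.G.-ES barcodes and at 48.9, 29.8, 24.0, 12.2 and 7.56 CPM in untreated barcodes. CD55, which protects cells from complement, ran the other way, at 273, 415, 646, 721 and 844 CPM in A.G.-ES and 384, 559, 663, 874 and 1172 CPM in untreated barcodes. Barcodes with more SOX5 UMIs were also deeper, with medians between 3886 and 7046 UMIs in the A.G.-ES library and between 4657 and 8890 UMIs in the untreated library. Between 4000 and 8000 UMIs, BACH2 stood at 1160 CPM with 0 SOX5 UMIs and 320 CPM with 10 or more in the A.G.-ES library, and at 4418 and 496 CPM in the untreated library. The steps were less even in this band. BACH2 rose from 367 CPM at 2 to 3 SOX5 UMIs to 455 CPM at 4 to 9 in A.G.-ES barcodes. BTLA stood at 84.5, 90.5, 25.7, 12.1 and 7.51 CPM in A.G.-ES and at 57.8, 41.1, 6.35, 9.56 and 5.98 CPM in untreated barcodes. Its largest drop thus fell at the limit, between 1 and 2 to 3 SOX5 UMIs. CCR7, the receptor for lymph-node chemokines, had no common order. Over all depths, it was at 42.8 CPM in A.G.-ES barcodes with 0 SOX5 UMIs and 72.0 CPM in those with 10 or more, and at 189 and 75.4 CPM in the untreated ones.

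**Figure D3:**
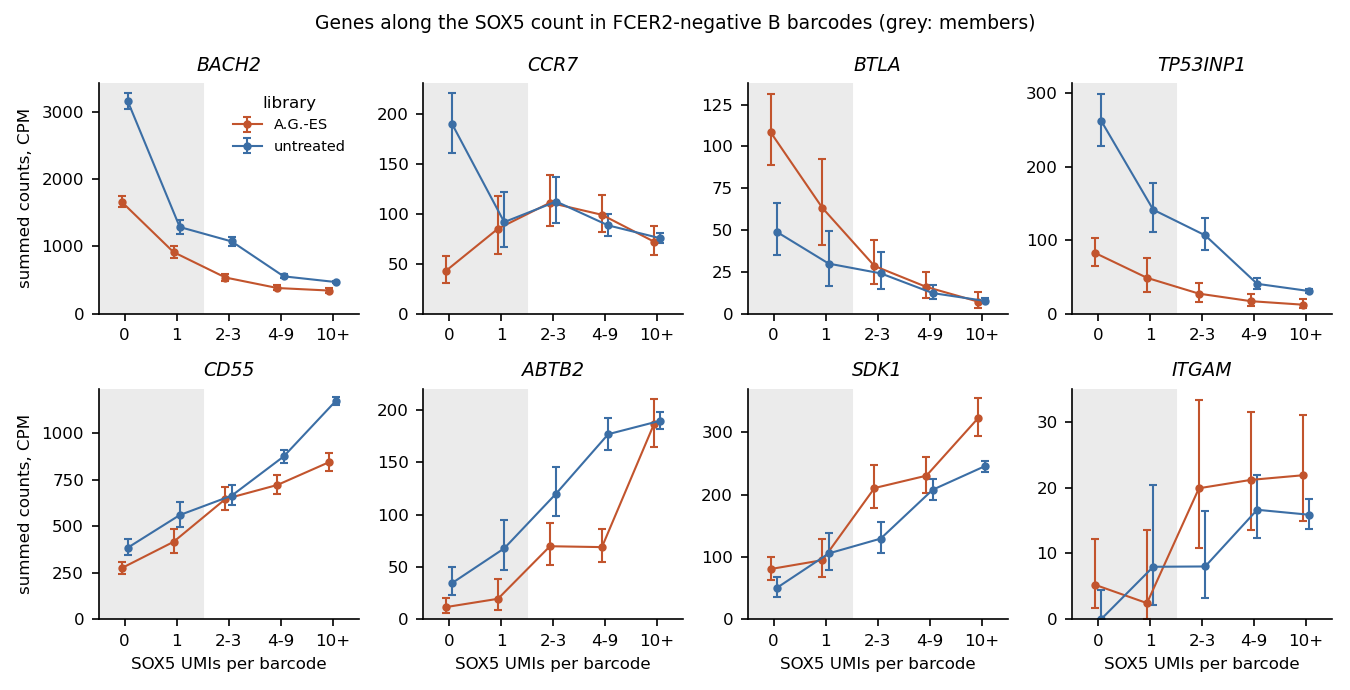
Summed-count levels (CPM) of 8 genes in FCER2-negative B barcodes grouped by their SOX5 UMIs, in the A.G.-ES and untreated libraries, with exact Poisson intervals and mixed barcodes set aside. The grey area marks the conventional B cells, with 0 or 1 SOX5 UMI. BACH2, BTLA and TP53INP1 are highest at 0 SOX5 UMIs, and CD55, ABTB2 and SDK1 are lowest there, in both libraries, while CCR7 has no common order.

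Of the gene lists, homing and adhesion had the most genes past the fold against SOX5-positive B cells. The lists are to be read beside all 6634 genes measured with mixed barcodes set aside. Of these, 3.27% were at least 1.5-fold higher in both libraries and 3.17% lower. With mixed barcodes set aside, 6 of 13 measured homing and adhesion genes were higher in both libraries, CXCR4, ITGB7, ITGB1, S1PR1 and CD44 among them, and 1 was lower, ITGAM, at a median log2 ratio of 0.38 against −0.02 over all genes. S1PR1, the receptor that lets lymphocytes leave lymphoid organs, had log2 ratios of 1.59 in the A.G.-ES library and 0.83 in the untreated library. With all members of 3000 to under 6000 UMIs, S1PR1 came to 0.32 in the untreated library and CD44 to 0.44 in the A.G.-ES library, both under the fold. Of 10 measured resting and naive genes, 3 were higher, BACH2 and BTLA among them, and 0 were lower. Of 23 B-lineage transcription factors, IRF8, BACH2, ETS1 and MEF2C were higher and BCL11A and TBX21 lower. With all members, those calls ended in the untreated library for IRF8 (0.24), MEF2C (0.55) and TBX21 (−0.44) among barcodes of 3000 to under 6000 UMIs, and for ETS1 in both libraries (0.40 in A.G.-ES and 0.52 in untreated) with barcodes thinned before the gate. MEF2C, which acts downstream of the B-cell receptor, was 2.65-fold higher in the A.G.-ES library and 2.19-fold higher in the untreated library. ZEB2 was lower in the A.G.-ES library (0.406, 0.363 to 0.454) and just short of the fold in the untreated one (0.667, 0.629 to 0.708). Of 15 memory and atypical genes, CD27 and ITGB1 were higher and ITGAM and TBX21 lower. The untreated interval of CD27, a memory marker in humans, ran from 0.959 to 3.08, and its A.G.-ES log2 ratio with all members was 0.44 at 3000 to under 6000 UMIs. None of 21 B-cell receptor genes, 10 survival genes, 17 nuclear oxidative phosphorylation genes, 76 ribosomal protein genes or 12 mitochondrially encoded genes was past 1.5-fold the same way in both libraries.

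FCER2-positive B cells were few, and ratios to them rest on few UMIs. The FCER2 condition also admits more cells among shallow barcodes. Of barcodes that passed all other conditions, 0% under 2000 UMIs were FCER2-positive in both libraries. At 8000 UMIs or more, the shares were 31.25% in A.G.-ES and 8.06% in untreated barcodes. Just 1 FCER2 UMI was held by 62 of the 79 A.G.-ES and 12 of the 19 untreated positive barcodes. How many conventional B cells were FCER2-positive cells without a captured FCER2 UMI was not tested. Of 3706 genes, 80 (2.16%) were at least 1.5-fold higher in conventional than in FCER2-positive B cells in both libraries and 46 (1.24%) were lower, with 79 A.G.-ES and 19 untreated FCER2-positive barcodes to compare with. With mixed barcodes set aside, the counts were 60 and 44. The higher genes held the monocyte and cytotoxic products of the mixed barcodes, VCAN, CXCL8, IL1A, THBS1 and GNLY. With those barcodes set aside, LIMD1 had 69 UMIs in conventional and 6 in FCER2-positive A.G.-ES B cells, a ratio of 3.01 (1.31 to 8.49), and 102 and 2 UMIs in the untreated library, a ratio of 4.40 (1.19 to 36.8). THOC1, an mRNA export factor, had ratios of 2.98 (1.45 to 7.11) and 2.59 (0.857 to 12.8), and the second interval holds 1. Among the lower genes, HIPK2, a stress kinase, had 146 UMIs in conventional and 83 in FCER2-positive A.G.-ES B cells, and 164 and 47 UMIs in the untreated library, for log2 ratios of −1.09 and −1.78. ANXA2, a membrane-binding protein, stood at −0.94 and −1.04. The survival gene BCL2 was lower as well, at −0.71 and −1.07. Of 22 B-lineage transcription factors and 17 B-cell receptor genes, 0 were past 1.5-fold the same way in both libraries. BACH2 stood at 1408 CPM in conventional and 1307 CPM in FCER2-positive A.G.-ES B cells, and at 2299 and 2678 CPM in the untreated library.

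Set against all other kept barcodes, which held T cells, NK cells, monocytes and the other B cells, 434 of 11355 genes (3.82%) were at least 1.5-fold higher in conventional B cells in both libraries and 1090 (9.6%) were lower, against 448 and 1394 with mixed barcodes set aside. BTLA stood at 92.1 CPM in conventional B cells and 11.5 CPM in the other barcodes of the A.G.-ES library, and at 39.6 and 12.6 CPM in the untreated library. PLEKHG1 stood at 36.6 and 8.85 CPM in the A.G.-ES library and at 290 and 55.8 CPM in the untreated one. RUNX1T1, a transcriptional corepressor, had log2 ratios of 2.89 and 2.69, GPM6B, a membrane proteolipid, 2.61 and 2.94, and SLC38A4 3.23 and 2.00. Both PLEKHG1 and RUNX1T1 also differed widely between the libraries, as given below. The other barcodes of the untreated library hold many more B cells than those of the A.G.-ES library, so ratios to them are not on one footing. In the other barcodes the B-marker list stood at 1987 CPM in the A.G.-ES and 6270 CPM in the untreated library.

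Between the libraries, A.G.-ES conventional B cells had lower levels of more genes than they had higher ones. Of 3733 genes whose members held 100 or more UMIs in the libraries together, 269 (7.21%) were at least 1.5-fold higher in A.G.-ES members and 697 (18.7%) at least 1.5-fold lower, and the median log2 ratio was −0.15. Centred on that median, 409 genes were higher and 460 lower. With mixed barcodes set aside, 277 of 3532 (7.84%) were higher and 640 (18.1%) lower. The 10 highest and 10 lowest genes are given next, and the plot of these genes shows SOX5-positive B cells and all other kept barcodes of the same libraries beside each. The differences between those ratios were not tested. The other barcodes hold unlike mixes of cells, with the B-marker list at 1987 CPM in the A.G.-ES and 6270 CPM in the untreated library. Their ratios therefore also include the difference in cell mix.

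Among the highest was TOX, a transcription factor of activated and exhausted lymphocytes, with 297 UMIs in 110 A.G.-ES members and 31 UMIs in 14 untreated members, or 209 and 21.5 CPM. Its ratio of 9.70 (6.69 to 14.5) compares with a log2 ratio of 3.28 in these cells, 2.34 in SOX5-positive B cells and 0.37 in the other barcodes. It came to 1.83 when barcodes were thinned before the gate, the lowest value over the alternatives. No single member held more than 37 of the A.G.-ES UMIs. ELAVL3, an RNA-binding protein best known from neurons, had 111 UMIs in A.G.-ES and 6 UMIs in untreated members, a log2 ratio of 4.23, against 1.86 in SOX5-positive B cells and 0.61 in the other barcodes. GABBR2, a subunit of the GABA-B receptor, had 338 UMIs in 175 A.G.-ES members and 38 UMIs in 24 untreated members. After thinning to 2000 UMIs, it was found in 30.7% of A.G.-ES and 3.72% of untreated members, with 29 and 58 shallower barcodes left out. Its log2 ratio was 3.17, against 1.78 in SOX5-positive B cells and 0.51 in the other barcodes. ERC2, a presynaptic scaffold gene, stood at 224 CPM in A.G.-ES and 16.0 CPM in untreated members, with a log2 ratio of 3.81 here, 2.98 in SOX5-positive B cells and 2.09 in the other barcodes. ATRNL1 (1.93), RGS18 (1.86), which restrains G-protein signalling, PITPNC1 (1.88) and FTL (2.24), the ferritin light chain, completed the nuclear genes among the highest 10.

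Mitochondrially encoded COX3 and ND1 were also among the highest 10, and they were as far apart in every class. COX3, a subunit of cytochrome c oxidase, stood at 2072 CPM in A.G.-ES and 164 CPM in untreated members, with log2 ratios of 3.66 in these cells, 3.26 in SOX5-positive B cells and 3.60 in the other barcodes. ND1, a subunit of complex I, stood at 1.93, 1.52 and 1.88. Mitochondrially encoded UMIs were 1.88% of all UMIs in A.G.-ES and 1.29% in untreated members.

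Among the lowest was FOXO1, a transcription factor of resting lymphocytes that is switched off by antigen-receptor signalling, with 115 UMIs in A.G.-ES and 555 UMIs in untreated members, or 80.8 and 385 CPM. Its ratio was 0.210 (0.170 to 0.257). Its log2 ratio was −2.25 in these cells, −1.18 in SOX5-positive B cells and −0.30 in the other barcodes. PDK1, a pyruvate dehydrogenase kinase that turns pyruvate away from mitochondria, had 25 and 173 UMIs, with log2 ratios of −2.77 here, −1.85 in SOX5-positive B cells and −0.43 in the other barcodes. KLHL14, a regulator of B-cell receptor signalling in humans, had 13 and 110 UMIs and a log2 ratio of −3.06, against −1.46 in SOX5-positive B cells and −3.07 in the other barcodes. RUNX1T1 had 16 and 173 UMIs (−3.42, against −1.64 in SOX5-positive B cells and −3.62 in the other barcodes). EPB41L4A had 23 and 296 UMIs, and its log2 ratio of −3.67 was near the −3.44 of SOX5-positive B cells and the −3.39 of the other barcodes. PLEKHG1 (−2.99), KCNMB3 (−2.60) and BCAR3 (−2.37), an adaptor of integrin signalling, had log2 ratios of −2.56, −2.20 and −1.85 in SOX5-positive B cells and −2.66, −3.52 and −1.97 in the other barcodes. RASGEF1B stood at −2.27 here, −2.32 in SOX5-positive B cells and −0.20 in the other barcodes. GNLY, at −2.27, rested on few barcodes, and its log2 ratio was 2.12 with mixed barcodes set aside.

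**Figure D4:**
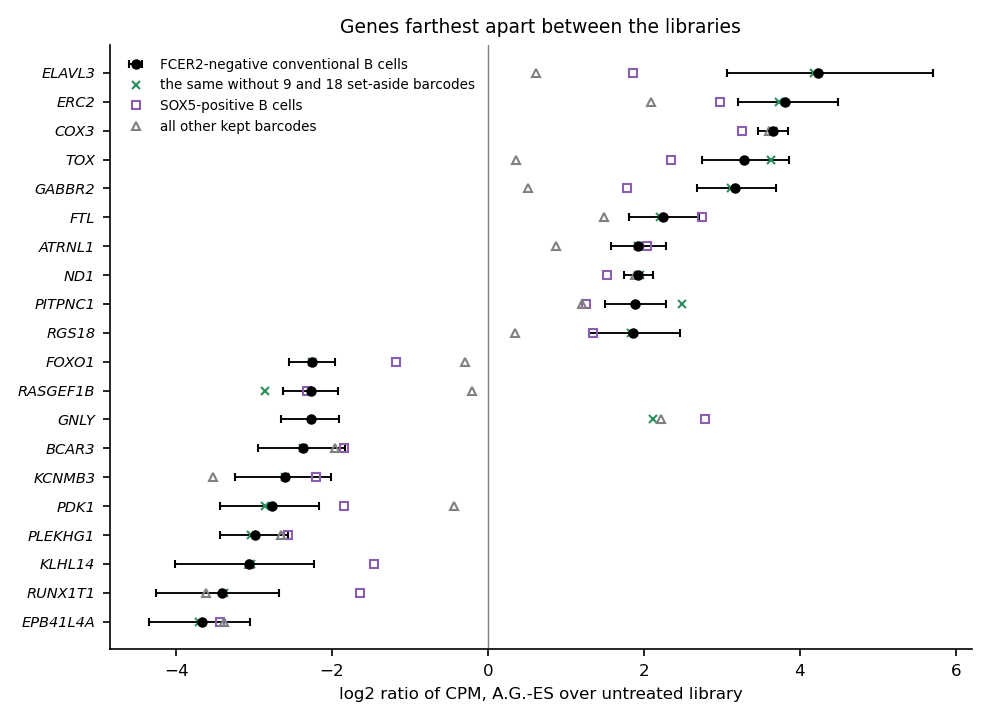
Log2 ratios of CPM, A.G.-ES over untreated library, for the 10 highest and 10 lowest genes of the conventional B cells (filled circles, with exact conditional binomial intervals). Crosses give the same cells with mixed barcodes set aside, squares the SOX5-positive B cells and triangles all other kept barcodes. COX3, ND1 and EPB41L4A lie at like values in all classes, while TOX, GABBR2, PDK1 and FOXO1 lie near 0 in the other barcodes, and GNLY changes sides. The mix of cells in the other barcodes differs between the libraries.

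Of 7 measured survival genes, BCL2, BCL2L11, BCL2A1 and TRAF3 were at least 1.5-fold lower and 0 were higher, at a median log2 ratio of −0.72, which lay between −0.80 and −0.24 over the alternatives. Over all genes, 18.7% were lower and 7.21% higher. The list held genes of opposite roles. BCL2, which blocks cell death, stood at 143 CPM in A.G.-ES and 246 CPM in untreated members (log2 ratio −0.78, against −0.04 in SOX5-positive B cells), and BCL2A1, of the same role, at 114 and 201 CPM (−0.82, against 0.00). BCL2L11, which encodes the death-promoting protein BIM, stood at 147 and 329 CPM (−1.16, against −0.52). TRAF3, which restrains survival signalling from the BAFF receptor, stood at 216 and 356 CPM (−0.72, against −0.51). BCL2 and BCL2A1 came under the fold, at −0.46 and −0.33, when barcodes were thinned to 3000 UMIs before the gate, and TRAF3, at −0.58, once centred on the median gene. TNFRSF13C, the BAFF receptor itself, stood at 205 and 167 CPM, with a log2 ratio of 0.30.

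Of 10 resting and naive genes, 5 were lower and 2 higher, against 18.7% lower and 7.21% higher of all genes. The median log2 ratio was −0.64 (−1.16 to −0.44 over the alternatives). FOXO1 has been described. FOXP1, a transcription factor of mature B cells, stood at 359 CPM in A.G.-ES and 1074 CPM in untreated members, a ratio of 0.334 (0.302 to 0.369). BACH2 stood at 1408 and 2299 CPM, a ratio of 0.612 (0.579 to 0.648), but came under the fold when barcodes were thinned before the gate, at a log2 ratio of −0.45, and when every cell had the same weight, at −0.43. CCR7 stood at 53.4 and 144 CPM, a ratio of 0.370 (0.281 to 0.484), and CXCR5, the receptor for B-cell follicles, at 25.3 and 56.2 CPM, a ratio of 0.450 (0.295 to 0.675). CCR7 was not lower in A.G.-ES SOX5-positive B cells, where its log2 ratio was 0.18. The 2 higher genes were KLF2, which drives lymphocyte recirculation, at 565 and 339 CPM (1.66-fold, 1.48 to 1.87), and BTLA, at 92.1 and 39.6 CPM (2.33-fold, 1.69 to 3.24). KLF2 came under 1.5-fold among barcodes of 3000 to under 6000 UMIs, at a log2 ratio of 0.30, and at 0.39 when barcodes were thinned before the gate.

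Of 22 B-lineage transcription factors, 7 were lower (EBF1, IKZF3, BACH2, FOXO1, FOXP1, POU2AF1 and ZEB2) and MEF2C and KLF2 higher, and the median log2 ratio was −0.36. The shares over all genes were 18.7% lower and 7.21% higher. EBF1 was at 744 CPM in A.G.-ES and 1396 CPM in untreated members, a ratio of 0.533 (0.494 to 0.574), and IKZF3, the lymphoid factor Aiolos, at 155 and 318 CPM. ZEB2 stood at 312 and 971 CPM, a ratio of 0.321 (0.288 to 0.358). MEF2C stood at 1270 and 734 CPM, a ratio of 1.73 (1.60 to 1.87), with a log2 ratio of 0.53 in members with at least 6 B-gene UMIs, under the fold. POU2AF1, a B-cell coactivator, had a log2 ratio of −0.60 over all members and 0.19 among barcodes of 3000 to under 6000 UMIs, and IKZF3 stood at −0.41 among those. SPIB, TCF3, IRF4 and ETS1 were among the 13 not past the fold, and with mixed barcodes set aside SPIB passed it, at −0.60, for 8 lower genes.

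Of 16 measured B-cell receptor genes, SYK, LYN and BLNK were lower and INPP5D was higher, shares near the 18.7% lower and 7.21% higher of all genes, and the median log2 ratio was −0.38. The kinase LYN stood at 476 CPM in A.G.-ES and 1027 CPM in untreated members, a ratio of 0.463 (0.422 to 0.508). SYK, the kinase that binds the phosphorylated receptor chains, stood at 387 and 685 CPM, and the adaptor BLNK at 142 and 255 CPM. Both came under 1.5-fold among barcodes of 3000 to under 6000 UMIs, at log2 ratios of −0.30 and −0.49. INPP5D, the inhibitory phosphatase SHIP1, stood at 607 and 403 CPM, a ratio of 1.51 (1.36 to 1.68), and came to a log2 ratio of 0.27 when barcodes were thinned before the gate. The gate selected on CD79B and BANK1, which were left out of the counts of genes.

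Activation genes went both ways. Of 13 measured, CD80, NR4A2 and DUSP2 were higher and MYC, NFKBIZ, TNFAIP3 and BCL2A1 lower, against 7.21% higher and 18.7% lower of all genes. MYC, a driver of growth, stood at 31.6 CPM in A.G.-ES and 142 CPM in untreated members, a ratio of 0.222 (0.157 to 0.308), with log2 ratios of −2.17 here and −1.17 in SOX5-positive B cells. CD80, a costimulatory ligand for T cells, stood at 68.9 and 28.5 CPM, a ratio of 2.42 (1.67 to 3.58), and DUSP2, a phosphatase of MAP kinases, at 240 and 112 CPM. TNFAIP3, an inhibitor of NF-κB, had a log2 ratio of −0.90 with all members and −0.13 with mixed barcodes set aside. Of 8 immediate early genes, JUND, IER2 and IER5 were higher and FOS was lower, with a median of 0.35, whose direction turned over the alternatives (−0.26 to 0.51). FOS stood at −0.62 with all members and −0.54, under the fold, with mixed barcodes set aside. IER2 came to 0.33 when barcodes were thinned before the gate. JUND stood at 515 and 262 CPM, a log2 ratio of 0.97, which was 0.39 among barcodes of 3000 to under 6000 UMIs. JUND was as far apart in SOX5-positive B cells (0.94) and in the other barcodes (0.95).

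Of 8 homing and adhesion genes, S1PR1 was higher, at 59.8 CPM in A.G.-ES and 27.1 CPM in untreated members (2.21-fold, 1.49 to 3.31), and CCR7, CXCR5 and CD44 were lower. In comparison, 7.21% of all genes were higher and 18.7% lower. CD44, the hyaluronan receptor, had a log2 ratio of −0.90, which was −0.19 in members with at least 6 B-gene UMIs. CXCR4, at 252 and 212 CPM, and ITGA4 were not past the fold. Of 9 memory and atypical genes, CD80 and TOX were higher and ZEB2 and FAS lower, at a median of −0.18, which was 0.29 with mixed barcodes set aside. The share of lower genes in this list was near the 18.7% of all genes. FAS, a death receptor, stood at 39.4 and 84.0 CPM. Of 9 glucocorticoid response genes, TSC22D3 (GILZ), at 648 and 269 CPM, and DDIT4, at 165 and 79.1 CPM, were higher, while FKBP5, at 98.4 and 127 CPM, was not past the fold. In SOX5-positive B cells TSC22D3 and DDIT4 had log2 ratios of 1.04 and 0.73.

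The remaining lists are to be read beside the 7.21% higher and 18.7% lower of all genes. The shares of lower antibody secretion and nuclear oxidative phosphorylation genes were near that 18.7%. Of 10 interferon response genes, EIF2AK2 was higher and 0 were lower, with a median of 0.03, and EIF2AK2 came to 0.23 among barcodes of 3000 to under 6000 UMIs. Of 7 cytokine receptor genes, IFNAR1 was higher, at 143 and 84.7 CPM, and came to a log2 ratio of 0.31 when barcodes were thinned before the gate. Of 9 antigen presentation genes outside the MHC, 2 were higher, MARCHF1, a ubiquitin ligase, among them at 152 and 95.8 CPM, with a log2 ratio of 0.19 when barcodes were thinned before the gate. Of 74 ribosomal protein genes, 2 were higher and 3 lower, and of 14 nuclear oxidative phosphorylation genes, NDUFB1 and SDHB were lower, both under the fold once centred on the median gene, at −0.58 and −0.53. Of 5 antibody secretion genes, 1, JCHAIN, which joins polymeric antibodies, was lower at 89.3 and 155 CPM. Its log2 ratio of −0.80 became 0.30 among barcodes of 3000 to under 6000 UMIs. Of 3 germinal centre genes, 0 were past the fold. Of 12 mitochondrially encoded genes, 5 were higher, at a median of 0.46, which lay between 0.34 and 0.60 over the alternatives.

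**Figure D5:**
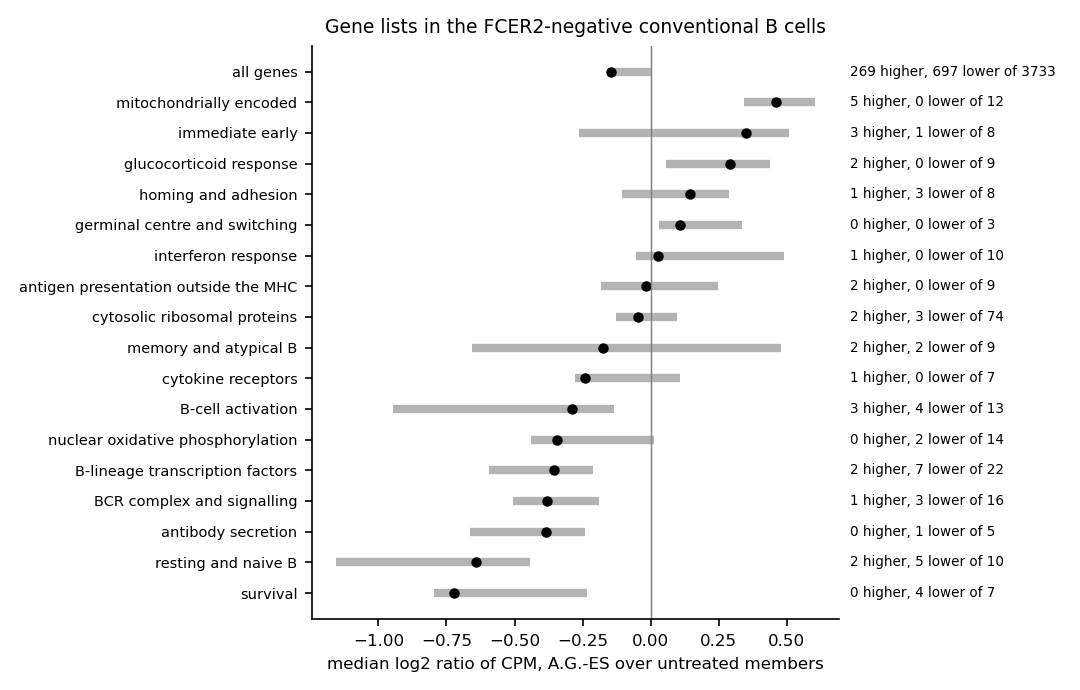
Median log2 ratio of CPM, A.G.-ES over untreated conventional B cells, for each gene list (points), with the range over the processing alternatives (grey bars) and, at the right, how many measured genes were at least 1.5-fold higher or lower. Survival and resting genes lie lowest, at −0.72 and −0.64, and all genes at −0.15.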

How the data were processed

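Sheep blood mononuclear cells were profiled with the SeekOne DD 3′ kit, per the labels' protocols, 1 library per group (2 libraries). The authors deposited raw UMI counts per gene and barcode. Which aligner, counting program, genome build and cell calling the authors used is not given in the sources used here. Rows that shared a name were summed, which left 26761 names, all of them in the RefSeq table of ARS-UI_Ramb_v3.0. CD3G was not analysed here.

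Barcodes with at least 200 genes and at most 15% mitochondrial UMIs were kept, 9452 of 9638 in the A.G.-ES library (44485442 UMIs in all) and 8088 of 8246 in the untreated library (55861418 UMIs). Counts were summed over the cells of a class and library and scaled to CPM. Ratios have exact conditional binomial intervals, levels exact Poisson intervals and shares Clopper-Pearson intervals, all at 95%. PCR errors in UMIs are not covered. A gene counted as higher or lower at 1.5-fold, with at least 100 UMIs over both libraries or, between classes, at least 50 in each library. A gene at 0 in one class was set at 3 UMIs for this call. The ratio step was tested on simulated data.

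Genes were named by a rule: the 10 highest and 10 lowest between libraries, some of the 15 highest and 15 lowest against FCER2-positive B cells and of the 20 highest against all other barcodes, and of each list the 2 to 4 with the most UMIs or largest ratios. The same ranking against SOX5-positive B cells, further list genes, and CD55 along the SOX5 count were chosen after their values were seen. The members, gene lists and classes were chosen with earlier results of these data known. The SOX5-positive class and the setting aside of mixed barcodes were added after seeing the data. Doublets were not removed in the main analysis. As an alternative, the highest Scrublet scores (scanpy 1.11.5) were taken out, 715 A.G.-ES and 523 untreated barcodes, of which 2 and 14 were members. TMM factors came from edgeR 4.0.16. Some genes that the rule named are not reported here.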

Additional observations from a re-analysis of the deposited data

Results flagged for a closer look

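In 6 genes the A.G.-ES over untreated ratio ran one way in conventional B cells and the other way in all other kept barcodes, past 1.5-fold in both. None of these differences was tested, since there is 1 library per group, and the other barcodes are mostly other cell types in shares that differ between the libraries. GNLY had a log2 ratio of −2.27 in conventional B cells and 2.22 in the other barcodes. It stood at 52.7 CPM in A.G.-ES and 255 CPM in untreated conventional B cells, and with 9 A.G.-ES and 18 untreated mixed barcodes set aside its log2 ratio was 2.12. TNFAIP3 had −0.90 and 1.36, and −0.13 in conventional B cells with those barcodes set aside. NFKBIZ had −1.17 and 0.71, and CD44, the hyaluronan receptor, −0.90 and 0.71. FOS had −0.62 and 0.85, and in SOX5-positive B cells −1.46. MARCHF1 had 0.66 in conventional B cells and −1.15 in the other barcodes.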

How the results depend on the processing

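No paired analysis was possible because there is 1 library per group. Of 2346 log2 ratios of single genes under the alternatives, 2094 stayed within the counting interval of the reported value. That number includes alternatives that could not move the ratio of a single gene. The count minimums decide only which genes are counted, and a minimum of 500 UMIs per barcode removed 0 kept barcodes in each library. Of the genes past the fold, 4 changed sign. Those were GNLY between libraries (2.12 with mixed barcodes set aside), POU2AF1 and JCHAIN between libraries (0.19 and 0.30 at 3000 to under 6000 UMIs) and IL7R over SOX5-positive B cells in the A.G.-ES library (−0.27 when barcodes were thinned to 3000 UMIs before the gate). The cause was not tested. The medians of 8 of 17 gene lists changed sign under at least 1 alternative, none of them past the fold as reported, among them immediate early (−0.26 with no count minimum) and memory and atypical genes (0.48 at 3000 to under 6000 UMIs). Between libraries, higher and lower genes numbered 2275 and 2827 with no count minimum, 46 and 134 with a minimum 5 times higher, 126 and 292 with cells thinned to 2000 UMIs, 160 and 268 at 3000 to under 6000 UMIs, and 409 and 460 when centred on the median gene. Against SOX5-positive B cells they were 3016 and 385 with no minimum, 75 and 72 with the higher minimum and 112 and 118 with the gate thinned. The higher genes alone were 133 with cells thinned, 95 at 3000 to under 6000 UMIs and 163 without barcodes holding any NK, monocyte or platelet UMI. Against FCER2-positive B cells they were 256 and 3090 with no minimum, 4 and 2 with the higher minimum, 23 and 17 with cells thinned, 50 and 29 without any such UMI, 166 and 141 with FCER2-positive taken from 2 UMIs and 48 and 15 with SOX5 at 0. The lower genes there were 23 with TMM scaling and 99 with the gate thinned. Higher genes against all other barcodes were 4561 with no minimum, 211 with the higher minimum and 655 with equal weight per cell. The share of members in the A.G.-ES and untreated libraries was 2.68% and 2.67% with at least 6 B-gene UMIs. It was 2.63% and 2.68% without any NK, monocyte or platelet UMI, and 2.59% and 2.14% with SOX5 at 0. With the gate thinned, which left out barcodes under 3000 UMIs, it was 6.12% and 7.90% of the remaining barcodes.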

Other observations

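HMCN2, an extracellular matrix gene, took 31715 CPM of A.G.-ES and 11107 CPM of untreated conventional B cells, with log2 ratios of 1.51 in these cells, 1.77 in SOX5-positive B cells and 1.45 in the other barcodes. It was detected after thinning in 100% of A.G.-ES and 99.5% of untreated members. IL31RA, a cytokine receptor subunit, had 0 UMIs in A.G.-ES and 25 in untreated conventional B cells, which was under the minimum of 100 UMIs. The interferon-stimulated gene ISG15, also under that minimum, had 80 UMIs in A.G.-ES and 17 in untreated members, a ratio of 4.77 (2.80 to 8.59). VPREB3 stood at 118 CPM in conventional and 22.1 CPM in SOX5-positive A.G.-ES B cells, and at 96.9 and 33.8 CPM in the untreated library, with mixed barcodes set aside. CR2, the complement receptor of mature B cells, stood at 5.84 and 0.615 CPM, from 8 conventional A.G.-ES UMIs, and at 17.1 and 2.31 CPM in the untreated library, from 23. HMCN2, IL31RA, ISG15, VPREB3 and CR2 were chosen after their values were seen.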
